A study of Mus musculus with 2 samples.

Results

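The hypoxia and glycolysis genes described here are 39 named genes, taken by symbol from the 31053 genes in the deposited matrices, and all 39 were found there. They fall into 3 groups by role. Oxygen sensing is covered by Hif1a, Egln1 and Egln3. The glycolytic group holds 16 genes of glucose uptake, glycolysis and lactate export. The remaining 20 genes are transcriptional targets of the hypoxia response outside glycolysis. Immune cells were studied from brain tumours of C57BL/6 mice in which GL261, a murine glioma line, had been injected into the brain. The mice drank either DW control water or water containing metformin, a biguanide drug that inhibits mitochondrial respiratory complex I. At day 20 after injection the tumour region was dissected, cells with high surface CD45 were sorted, and 1 library per drinking water was made with the 10x Genomics 3' kit, version 3. Both groups shared the strain, the tumour line, the day and the sort. The labels give neither the number of mice behind a library nor the metformin dose, so each group is 1 sample, cells are not replicates, and no difference between the libraries was tested. The sort favours blood-derived cells over microglia, which carry less CD45. The title of the series poses the question of how tumour hypoxia acts on γδ T cells.

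Cells sense oxygen through prolyl hydroxylases, among them those encoded by Egln1 and Egln3, which mark the HIF-1α protein for destruction while oxygen is plentiful. When oxygen is scarce the protein is stable, binds short DNA elements in promoters and enhancers and raises genes of glucose uptake, glycolysis, mitochondrial removal, angiogenesis and lipid storage. Activated lymphocytes and macrophages also raise glycolytic genes through growth and inflammatory signals, and the Hif1a transcript is not itself a measure of HIF-1α protein.

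The control library held 6174 barcodes and 49651404 UMIs (unique molecular identifiers, each standing for a captured transcript end), and the metformin library held 5473 barcodes and 47142356 UMIs. After filtering, 5368 and 4568 cells were described, with median depths of 7288 and 7930 UMIs. The libraries shared 9 barcodes, 8 of them among these cells. Cells were grouped into 30 clusters or classes without using the 39 genes, and a class carries a cell type name followed by "-like" only where its markers fit. Few cells were named as other than immune cells: 22 and 27 cells were fibroblast-like, and no named class was of tumour cells, astrocytes or oligodendrocytes. Levels are UMIs of a gene in the class scaled to all UMIs of the class, as counts per 1000000 (CPM). Intervals are exact at 95% and cover counting error only, not the difference between mice, and UMIs within a cell are not independent. With this 3' chemistry a transcript is counted at its end whatever its length.

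The core of the hypoxia response element was searched on both strands in its common form, ACGTG, which reads CACGT on the opposite strand. Its variant form, which begins with G and is otherwise equal, is GCGTG, and on the opposite strand this variant reads CACGC. In the RefSeq promoter table (build GRCm38.p6), 36 of the 39 genes had an entry and Slc2a3, Bnip3l and Ndrg1 did not. Within 250 bases upstream of a start, 33 of the 36 genes (91.7%) held at least 1 of these letter runs, against 41.5% of the 27025 genes in the table. Counted by promoter, 41 of 53 (77.4%) held one, against 38.6% of 32851. ACGTG alone was in 45.3% of the genes' promoters and in 16.6% of all promoters. Such a match is a description of the letters and not a measured binding site. The genes were not matched to the rest of the table for base composition or for the number of starts. They were listed for their roles in hypoxia and glycolysis, so the shares describe the list and not these libraries. The upstream sequence of Ldha, chr7:46845554-46845803 on the plus strand, is shown because it held 5 matches, 2 pairs of which overlap as the palindrome CACGTG, beginning 145 and 48 bases before the start. Windows of 29 bases are shown for the genes on which the comparison in macrophages turns and for Hif1a, Slc2a1, Hk2 and Hilpda. For a gene with several promoters the window came from the one with the most matches, and the other Hilpda promoter held none. Matches are in capitals.
Ldha, 250 bases upstream: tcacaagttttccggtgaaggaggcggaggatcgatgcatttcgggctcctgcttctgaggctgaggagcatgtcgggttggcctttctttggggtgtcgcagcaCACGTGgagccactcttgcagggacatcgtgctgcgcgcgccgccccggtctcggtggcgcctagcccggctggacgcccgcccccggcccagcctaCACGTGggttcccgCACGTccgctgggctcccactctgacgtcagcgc
Hif1a, chr12:73907785-73907813, plus strand: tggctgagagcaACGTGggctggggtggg
Egln3, chr12:54204087-54204115, minus strand: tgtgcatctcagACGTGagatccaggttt
Ero1l, chr14:45318619-45318647, minus strand: cgcgcgccgctgCACGTccgcaggggagg
Ddit4, chr10:59951869-59951897, minus strand: gacctggaggggGCGTGgcctcgccggga
Plin2, chr4:86670129-86670157, minus strand: ggttggggttccCACGCcctcatccccaa
Hilpda, chr6:29272571-29272599, plus strand: gatggccagcggACGTGccccagggcgag
Slc2a1, chr4:119108697-119108725, plus strand: gtcccgccccggACGTGctccccaggccc
Hk2, chr6:82774490-82774518, minus strand: aatgagcacatcCACGTcactgtccgggg
Of the 2 Vegfa windows in the table, both on the minus strand, chr17:46032378-46032627 held none of these letters, which says only that they are not in that window, and chr17:46025164-46025413, which overlaps an exon of the gene, held 2 matches.

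Arg1 macrophage-like cells carried the largest share of both groups among the 30 classes. This class of 374 control and 355 metformin cells is led by Arg1, the arginase of alternatively activated macrophages, and holds both monocyte and macrophage markers. Its summed glycolytic level was 7240 CPM in the control library and 6365 CPM in the metformin library, and it supplied 18.4% and 19.2% of all glycolytic UMIs. Cycling lymphocyte-like cells came next with 6464 and 6291 CPM, then regulatory T-like cells with 5976 and 5947 CPM and CD4 T-like cells with 5569 and 5624 CPM among the classes holding 50 or more cells of each library. At the low end, microglia-like cells, named after the brain's own macrophages, had 2010 and 2050 CPM, and naive T-like cells had 1679 and 1761 CPM. The naive cells thus stood at the bottom and dividing and effector cells near the top in both libraries. Gapdh supplied 30.3% and 30.7% of the glycolytic UMIs of the macrophages.

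The order was partly different for the hypoxia targets. Arg1 macrophage-like cells had 1956 and 1894 CPM, regulatory T-like cells 1470 and 1532 CPM, cycling lymphocyte-like cells 1396 and 1227 CPM, CD4 T-like cells 1291 and 1273 CPM and γδ T-like cells 1260 and 1293 CPM. Microglia-like cells had 861 and 844 CPM. Mif, a cytokine made by many immune cells at rest, was highest in the macrophages, at 710.3 and 621 CPM, and supplied 36.3% and 32.8% of their target UMIs. Without Mif the macrophages still stood at 1246 and 1273 CPM, followed by regulatory T-like cells at 1083 and 1145 CPM and γδ T-like cells at 982 and 1011 CPM. The 22 and 27 fibroblast-like cells had 1385 and 1453 CPM on that count.

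**Figure D1:**
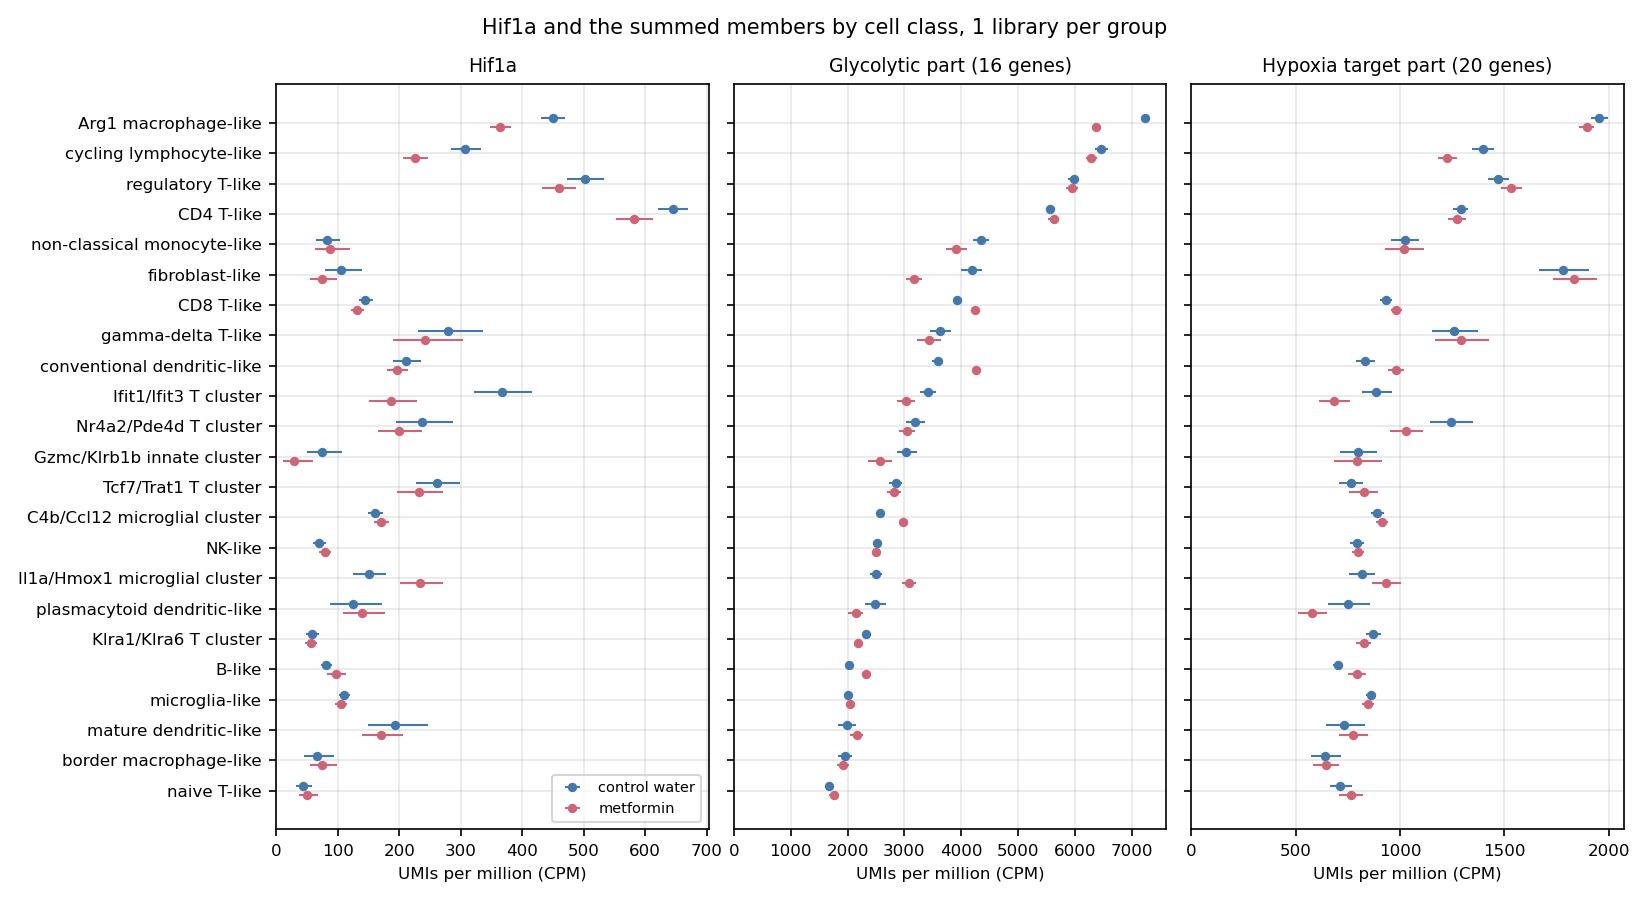
Levels of Hif1a and summed levels of the glycolytic and hypoxia target genes in each class with at least 20 cells per library, in CPM, for the control water and metformin libraries (points) with exact 95% counting intervals (lines). Arg1 macrophage-like cells lie at 7240 and 6365 CPM for the glycolytic genes, and naive T-like cells at 1679 and 1761 CPM.

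Hif1a, which encodes the oxygen-labile subunit of HIF-1, was highest in CD4 T-like, regulatory T-like and Arg1 macrophage-like cells. CD4 T-like cells had 644.9 CPM (2624 UMIs) in the control library and 581 CPM (1470 UMIs) in the metformin library. Regulatory T-like cells had 501.5 and 459.5 CPM, and Arg1 macrophage-like cells 449.5 CPM (1960 UMIs) and 364 CPM (1871 UMIs). These classes held ranks 1, 2 and 3 in both libraries among the 23 classes of 20 or more cells from each library. γδ T-like cells had 279.6 and 242 CPM. CD8 T-like cells, at 145 and 132 CPM, microglia-like cells, at 111 and 105 CPM, and NK-like cells, at 70.1 and 78.5 CPM, formed the lower range, and naive T-like cells had 43.4 and 50.3 CPM. The counting intervals of CD4 T-like (621 to 670.1 CPM) and regulatory T-like cells (472 to 532 CPM) did not overlap in the control library, while those of CD8 T-like (134 to 157 CPM) and Il1a/Hmox1 microglial cells (125 to 179 CPM) did.

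After each cell was thinned to 3000 UMIs, 70.1% of control and 62.8% of metformin Arg1 macrophage-like cells held a Hif1a UMI, against 93.0% and 90.4% unthinned. The thinned shares were 76.0% and 70.6% in CD4 T-like, 27.7% and 28.8% in microglia-like, 19.8% and 21.5% in B-like and 17.1% and 16.9% in NK-like cells. Hif1a overlaps the predicted gene Gm49321 on the same strand, so some of its reads could be shared. Over both whole libraries Hif1a was at 225 and 203 CPM, a ratio of metformin to control of 0.900 (interval 0.875 to 0.926). Whole-library values also move with the cells present, and the class with the most Hif1a, CD4 T-like, had 415 control and 223 metformin cells. Its ratio was below 1 in 12 of the 17 classes compared and its interval lay below 1 in 5 of them. Cycling lymphocyte-like cells were among these, with 307.5 and 226 CPM and a ratio of 0.735 (0.652 to 0.828).

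Egln1, the main oxygen-sensing hydroxylase, was at 47.9 CPM in the control and 46.9 CPM in the metformin library as a whole. Its highest levels were in the Nr4a2/Pde4d T cluster of the control library (102 CPM) and the CD4 T-like cells of the metformin library (86.6 CPM). Plasmacytoid dendritic-like cells had 96.9 and 63.7 CPM, while B-like cells had only 20.9 and 20.8 CPM. Egln3, a hydroxylase that is itself raised by HIF, was sparse, with 193 and 167 UMIs in all. The macrophages held 27.5% and 23.95% of them, and CD4 T-like cells, where the ratio was 0.728, 21.8% and 11.4%. Among the 23 classes of 20 or more cells from each library, the order of classes by Hif1a was most like that by Gapdh (Spearman 0.74 in the control and 0.70 in the metformin library), Aldoa (0.68 and 0.69) and Pfkl (0.67 and 0.67), and unlike that by Vegfa (-0.29 and -0.26) or Plin2 (0.09 and 0.20). These classes share libraries and differ in depth, so the coefficients are descriptions only.

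Glucose enters through Slc2a1 (GLUT1) and Slc2a3 (GLUT3), and the libraries showed them in different cells. Slc2a1 was highest in the Il1a/Hmox1 microglial cluster, at 161 and 142 CPM, and in the macrophages, at 139 and 115 CPM, while CD8 T-like cells had 16.8 and 14.7 CPM. Slc2a3 was almost missing from the macrophages, with 4 and 15 UMIs, and neutrophil-like cells, only 45 and 6 in number, had 391 and 661 CPM. CD8 T-like cells supplied 23.7% and 27.5% of all Slc2a3 UMIs.

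The hexokinases, which trap glucose in the cell, were also divided. Hk2, the inducible form, was a microglial transcript here: the C4b/Ccl12 microglial cluster had 349.7 and 353 CPM and microglia-like cells 324.5 and 354 CPM, against 189.7 and 160.4 CPM in the macrophages and 6.41 and 7.85 CPM in NK-like cells. Microglia-like cells supplied 35.9% and 27.3% of its UMIs and the C4b/Ccl12 cluster 27.3% and 31.2%. Microglia-like cells thus carried Hk2 near the top of the range while their summed glycolytic level was among the lowest. Hk1, the constitutive form, was at 62.9 and 50.3 CPM in the Ifit1/Ifit3 T cluster and at 60.5 and 53.2 CPM in regulatory T-like cells.

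The middle of the pathway followed the macrophages and the activated T cells. Phosphofructokinase was split by isoform, with Pfkl highest in the macrophages at 108 and 80.6 CPM and Pfkp highest in conventional dendritic-like cells at 298 and 347 CPM, against 3.97 and 3.39 CPM in microglia-like cells. Tpi1, triose phosphate isomerase, was at 638 and 516 CPM in the macrophages and at 41.4 and 63.4 CPM in naive T-like cells. Aldoa (aldolase), Pkm (pyruvate kinase) and Gapdh were highest in the macrophages of the control library, at 878, 911 and 2191 CPM, and had 700.4, 816 and 1956 CPM there in the metformin library. In that library regulatory T-like cells stood slightly above them for Aldoa (703 CPM) and Pkm (825.5 CPM), and cycling lymphocyte-like cells for Gapdh (2206 CPM). Gpi1, glucose phosphate isomerase, was highest in regulatory T-like cells at 392 and 415 CPM, Pgk1 in cycling lymphocyte-like cells at 395 and 364 CPM, and Pgam1 in the macrophages at 361 and 347 CPM. Eno1, enolase, was highest in CD4 T-like cells in the control library, at 350.2 CPM, and in cycling lymphocyte-like cells in the metformin library, at 377 CPM. Processed pseudogene copies of Gapdh, Pgk1, Ldha and Eno1 exist in the mouse, and reads shared with them are uncertain.

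The exit of the pathway differed between classes. Ldha, which turns pyruvate into lactate, was highest in cycling lymphocyte-like cells at 809 and 723.5 CPM and was at 478 and 447 CPM in the macrophages. Slc16a3 (MCT4), the lactate exporter, was high in several myeloid classes and in regulatory T cells: non-classical monocyte-like cells had 144 and 210.4 CPM and the macrophages 129 and 129 CPM. Regulatory T-like cells had 61.9 and 76.9 CPM, above microglia-like cells at 33.3 and 39.9 CPM, while naive T-like cells had no UMI in either library, which allows up to 3.56 and 4.04 CPM (exact upper bounds).

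**Figure D2:**
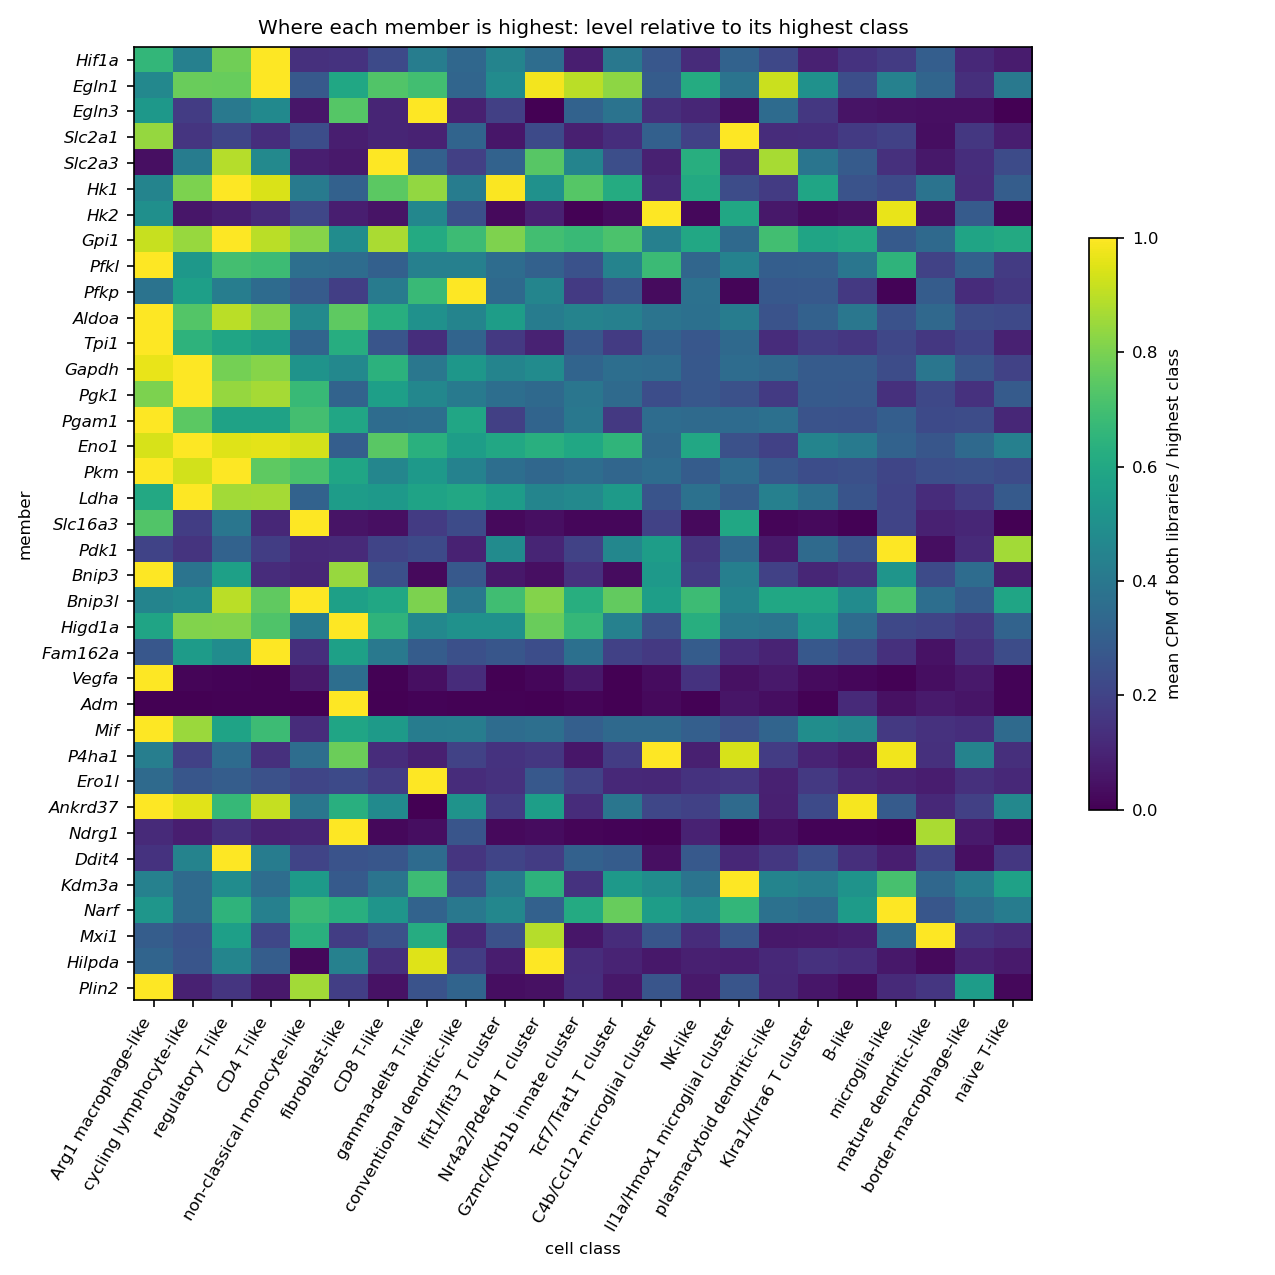
Mean CPM of both libraries for 37 genes (rows, by role) in each class with at least 20 cells per library (columns), divided by the gene's highest class, so that 1 marks that class. Hk2 is high in the microglial columns (349.7 and 353 CPM in the C4b/Ccl12 cluster), Vegfa in the Arg1 macrophage column (264 and 227 CPM), and Slc2a3 is near 0 in that column.

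Among the mitochondrial targets, Pdk1, the kinase that inhibits pyruvate dehydrogenase, was highest in microglia-like cells, at 118 and 129 CPM. These cells held 33.3% and 27.8% of its UMIs. Bnip3, a receptor for removal of mitochondria, was highest in the macrophages at 53.4 and 40.3 CPM. Its relative Bnip3l was broad and reached 204 and 172 CPM in non-classical monocyte-like cells. Higd1a reached 240.2 and 202 CPM in fibroblast-like cells. Fam162a was highest in CD4 T-like cells at 154 and 161 CPM. Ak4, a mitochondrial adenylate kinase, had 12 and 10 UMIs (0.257 and 0.227 CPM) in the whole libraries and gave no comparison.

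Vegfa, the endothelial growth factor, was the most concentrated of the well-covered targets. Arg1 macrophage-like cells held 74.3% of its UMIs in the control library and 74.4% in the metformin library. Their level was 264 CPM (1151 UMIs) and 227 CPM (1164 UMIs), while NK-like cells, the next largest source by UMIs, had 37.3 and 35.2 CPM. After thinning, 34.1% (interval 29.2% to 39.2%) and 30.2% (25.4% to 35.4%) of the macrophages held a Vegfa UMI, against 54.3% and 50.4% unthinned. The same share was 0.633% and 1.22% in B-like cells, which serve here as a class with little of the transcript, and 10.5% and 7.94% in NK-like cells. Adm, adrenomedullin, had only 219 and 256 UMIs. B-like cells supplied 51.1% of them in the control library, and the 27 fibroblast-like cells supplied 54.7% in the metformin library, at 214 CPM against 80.8 CPM in the 22 control cells.

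P4ha1, a collagen prolyl hydroxylase subunit, was again microglial, at 186 and 137 CPM in the C4b/Ccl12 cluster and 166 and 150.2 CPM in microglia-like cells. P4ha2 had 51 and 43 UMIs in all (1.09 and 0.976 CPM), 41.2% and 72.1% of them in fibroblast-like cells. Ero1l, an oxidase of the endoplasmic reticulum, was highest in γδ T-like cells among classes of at least 20 cells in each library, at 138.5 and 150.5 CPM, and 19 control basophil-like cells had 666.5 CPM.

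The other targets were scattered. Ddit4, an inhibitor of mTORC1, was highest in regulatory T-like cells at 199 and 195 CPM. Ndrg1 was highest in fibroblast-like cells at 226 and 222 CPM and, with 209 and 182 CPM, in mature dendritic-like cells. Mxi1, an antagonist of MYC, was at 144 and 102 CPM in the Nr4a2/Pde4d T cluster. The histone demethylase gene Kdm3a reached 59.9 and 55.8 CPM in the Il1a/Hmox1 cluster, Narf reached 39.4 and 47.2 CPM in microglia-like cells, and Ankrd37 was at 24.5 and 13.7 CPM in cycling lymphocyte-like cells.

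The 2 lipid droplet genes had different carriers. Plin2, the coat protein of lipid droplets, was a macrophage transcript, with 266 CPM in control and 404 CPM in metformin macrophages, 40.8% and 49.4% of its UMIs. Hilpda, an inhibitor of lipid breakdown on droplets, was highest in lymphocytes: the Nr4a2/Pde4d T cluster had 249 and 160.1 CPM and γδ T-like cells 196.5 and 193 CPM, against 59.2 and 73 CPM in the macrophages.

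The libraries were compared gene by gene in the 17 classes of 50 or more cells from each library, γδ T-like cells (59 and 46) being included although 1 library lay under that number. A gene was called higher or lower when it had at least 40 UMIs over both libraries in the class, a ratio of at least 1.5 in either direction and an interval that left out 1. Of 493 measured pairs of gene and class, 19 were higher and 14 lower in the metformin library, or 6.69%, beside 5.07% of the 113958 pairs measured over all genes. The called pairs fell on 21 of the 39 genes and in 16 of the 17 classes. How many of all genes were called in at least 1 class was not counted. The 21 are therefore no result about these genes as a group. Ak4 and P4ha2 did not reach 40 UMIs in any of these classes.

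In Arg1 macrophage-like cells 4 members were called, in both directions. Plin2 was at 266 CPM (1160 UMIs) in the control and 404 CPM (2074 UMIs) in the metformin library, a ratio of 1.52 (interval 1.41 to 1.63), and it was the single member called higher. Egln3, Ero1l and Ddit4 were lower. Ddit4 had 35.6 CPM (155 UMIs) and 22.4 CPM (115 UMIs), a ratio of 0.630 (0.490 to 0.807). Ero1l had 61.0 CPM (266 UMIs) and 38.7 CPM (199 UMIs), a ratio of 0.635 (0.526 to 0.766). Egln3 had 12.2 CPM (53 UMIs) and 7.79 CPM (40 UMIs), a ratio of 0.640 (0.414 to 0.984), and it lost the call when cells were weighted equally (0.845), without the richest cell (0.668) and without the T and B cell gene sub-clusters (0.684). The 4 called members were among 35 measured, beside 6.78% of all 8964 genes measured in the class. Counts this small are no result about these genes as a group.

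Below the size of the call, most members of the macrophages leaned the same way. Of 15 glycolytic genes measured, 1 had a log2 ratio above 0, and their median was -0.16, against -0.01 over all genes measured. Of 17 measured targets, 4 lay above 0, with a median of -0.22. Hif1a itself had a ratio of 0.810 (0.760 to 0.864). Slc2a1 had 0.828 (0.738 to 0.928), Vegfa 0.858 (0.791 to 0.932), Bnip3 0.754 (0.622 to 0.913) and Ldha 0.936 (0.881 to 0.993). Aldoa had 0.798 (0.762 to 0.835) and Tpi1 0.810 (0.767 to 0.854), and Slc16a3, at 1.01 (0.898 to 1.13), was the glycolytic gene above 1. The summed glycolytic level had a ratio of 0.879 (0.866 to 0.893). Hilpda, the other droplet gene, was at 1.23 (1.05 to 1.45), on the side of Plin2. The share of thinned macrophages with a Plin2 UMI was 42.7% (37.6% to 48.0%) in the control and 63.3% (58.0% to 68.5%) in the metformin library, and these intervals did not overlap, while B-like cells had 3.96% and 2.44%.

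The make-up of the macrophage class differed between the libraries as well. The summed level of 6 monocyte markers was 5460 and 4017 CPM, of 8 macrophage markers 24222 and 29802 CPM, of 6 CD8 T markers 56.9 and 122 CPM and of 7 NK markers 19.5 and 62.5 CPM, all markers of these lists being detected in both libraries. The 9 tumour or glial markers were at 35.8 and 36.2 CPM. Median depth was 10332 and 13061 UMIs per cell. The part of these values in the results was not tested.

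**Figure D3:**
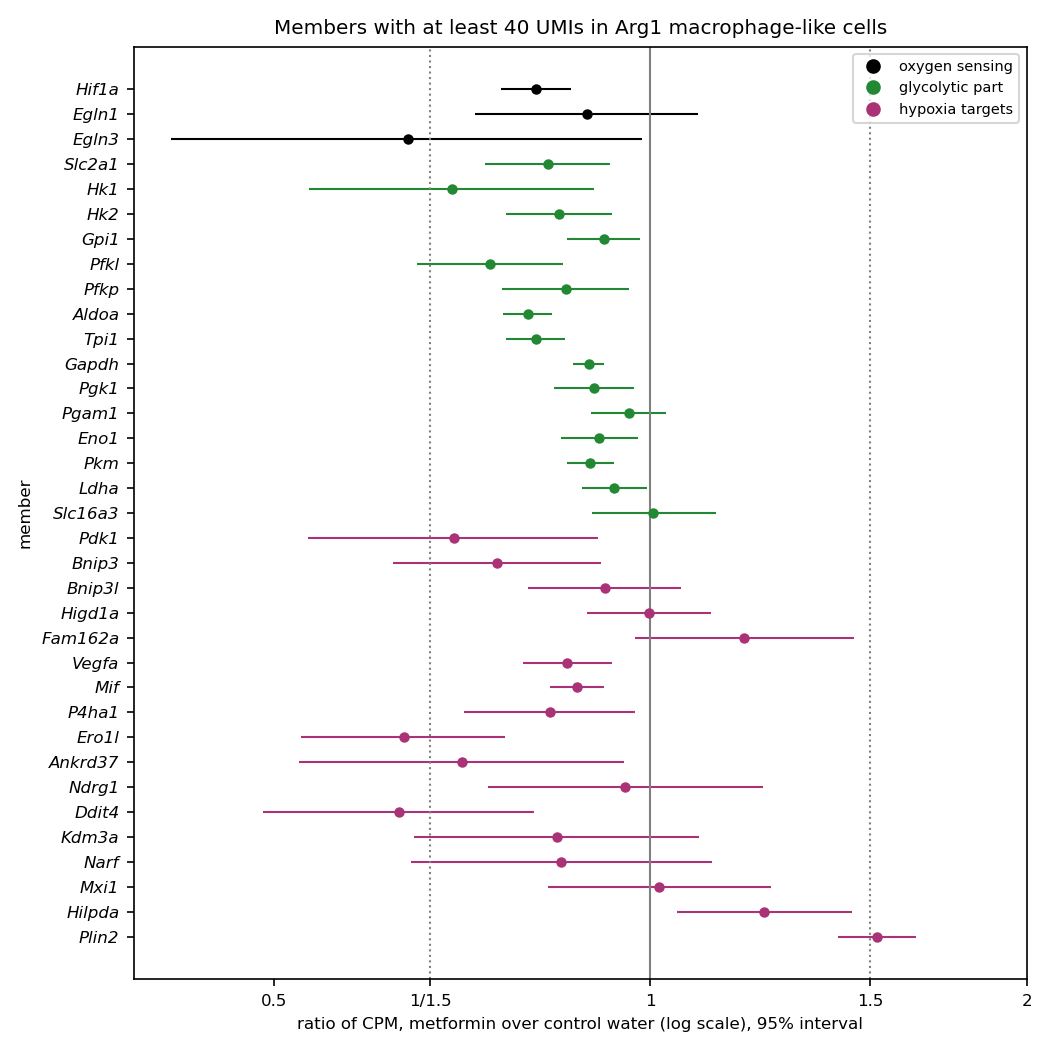
Ratio of metformin to control in Arg1 macrophage-like cells for each of the 35 measured genes, on a log axis, with exact 95% counting intervals and colors for the 3 groups of genes. Plin2 lies at 1.52, Ddit4, Ero1l and Egln3 lie between 0.630 and 0.640, and 30 of the 35 points lie below 1.

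The class was split, without the 39 genes, into 5 macrophage sub-clusters named by leading genes, and 2 small sub-clusters led by T cell genes (8 and 14 cells) and B cell genes (3 and 5 cells). The S100a4/Ifit1 sub-cluster, the highest in the monocyte gene Ly6c2 at 3088 and 2758 CPM, held 31.8% of control and 18.03% of metformin macrophages, and the Gpnmb/Trem2 sub-cluster, led by genes of lipid-laden phagocytes, held 18.4% and 26.5%. Plin2 was higher in the metformin library in each of the 5. Its levels were 271 and 393 CPM in S100a4/Ifit1 (ratio 1.45, interval 1.20 to 1.75), 329 and 567 CPM in Gpnmb/Trem2 (1.72, 1.48 to 2.02) and 335 and 401 CPM in Nos2/Clec4e (1.20, 1.04 to 1.39). They were 144 and 292 CPM in Cxcl2/Mgl2 (2.03, 1.63 to 2.54) and 236 and 375 CPM in Ccl8/Mmp13 (1.59, 1.31 to 1.94). The interval lay above 1 in each sub-cluster. The share of thinned cells with a Plin2 UMI was 40.5% and 66.7% in S100a4/Ifit1, 33.9% and 64.8% in Gpnmb/Trem2 and 23.8% and 65.3% in Cxcl2/Mgl2, with intervals that did not overlap. It was 55.4% (44.1% to 66.3%) and 64.4% (52.3% to 75.2%) in Nos2/Clec4e and 51.1% (35.8% to 66.3%) and 51.7% (32.5% to 70.5%) in Ccl8/Mmp13, where the intervals overlapped.

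Hif1a and Vegfa were less uniform. Vegfa was highest in the Nos2/Clec4e sub-cluster (440.0 and 378 CPM), whose leading gene encodes inducible nitric oxide synthase, and in Cxcl2/Mgl2 (464 and 290.5 CPM, ratio 0.626). It was low in S100a4/Ifit1 (59.5 and 55.9 CPM) and stood higher in the metformin library in Gpnmb/Trem2 (168 and 219.6 CPM, ratio 1.31). In Ccl8/Mmp13, with 47 and 30 cells, it had 176 and 17 UMIs, 204 and 28.5 CPM, a ratio of 0.139 (0.0794 to 0.230). Hilpda there had 81.3 and 15.1 CPM, and Hif1a 390.2 and 186 CPM, a ratio of 0.477 (0.381 to 0.592). In the Nos2/Clec4e cells Hif1a was at 446 and 510.4 CPM, a ratio of 1.145 (1.009 to 1.299).

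The counts of glycolytic genes on either side of 1 differed between sub-clusters. The ratio was below 1 for 12 of 15 genes in S100a4/Ifit1, 13 of 14 in Gpnmb/Trem2, 9 of 15 in Nos2/Clec4e, 10 of 15 in Cxcl2/Mgl2 and 14 of 14 in Ccl8/Mmp13. The intervals lay below 1 for 5, 7, 1, 2 and 12 of these genes and above 1 for 2, 0, 1, 2 and 0. In Nos2/Clec4e and Cxcl2/Mgl2 as many intervals thus lay above 1 as below it, and no lower level was shown there. Ccl8/Mmp13 had the most genes below, and it held 12.6% and 8.45% of the class. Arg1, the arginase gene, was at 2148 and 303 CPM there and at 984 and 533 CPM in Nos2/Clec4e. Among the hypoxia targets, 10 of 13 had a ratio below 1 in S100a4/Ifit1, 11 of 15 in Gpnmb/Trem2 and 9 of 17 in Nos2/Clec4e. In Ccl8/Mmp13 it was 9 of 11, but in Cxcl2/Mgl2 only 5 of 16, with 11 above 1. In the order S100a4/Ifit1, Gpnmb/Trem2, Nos2/Clec4e, Cxcl2/Mgl2, Ccl8/Mmp13, target intervals lay below 1 for 2, 6, 3, 1 and 6 genes. They lay above 1 for 1, 3, 1, 2 and 1. The same counts were not made over all genes of a sub-cluster. They are therefore no result about the glycolytic genes or the targets as a group.

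**Figure D4:**
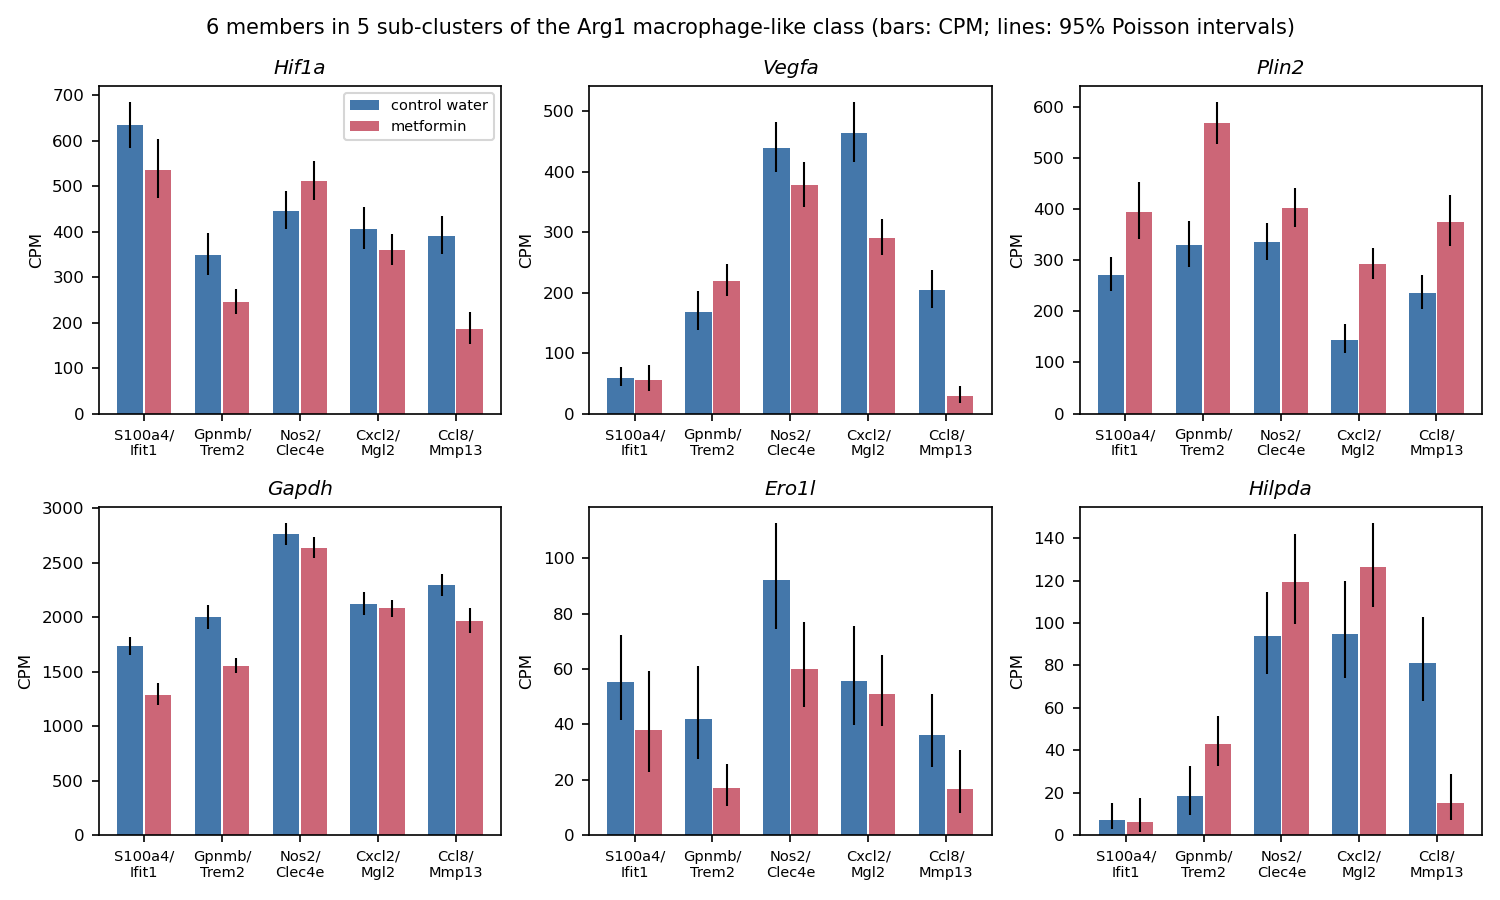
Levels of 6 genes in 5 sub-clusters of the Arg1 macrophage-like class, in CPM (bars), for the control and metformin libraries, with exact 95% counting intervals (lines). Plin2 is higher in the metformin library in all 5 sub-clusters, and Vegfa of the Ccl8/Mmp13 sub-cluster lies at 204 CPM in control and 28.5 CPM in metformin cells.

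In microglia-like cells the summed glycolytic level had a ratio of 1.02 (0.991 to 1.05), 8 of 15 genes lay above 0 on the log2 scale, and 1 of 33 measured members was called, beside 2.22% of all genes. This was Adm, with 24 and 36 UMIs and a ratio of 2.27 (1.32 to 3.97). Hif1a was at 0.944 (0.831 to 1.07), Slc2a1 at 0.808 (0.628 to 1.03), Ldha at 1.03 (0.925 to 1.14) and Bnip3 at 1.03 (0.787 to 1.35). In the C4b/Ccl12 cluster the glycolytic sum was higher, at 2575 and 2981 CPM (ratio 1.16, 1.13 to 1.19), and 13 of 15 genes lay above 0. Their median log2 ratio was 0.12, against -0.05 over all genes measured in the cluster. Gapdh had its highest ratio of the compared classes there, at 1.32. Plin2 (70.0 and 108 CPM, ratio 1.54, 1.32 to 1.79) and Ero1l (12.5 and 19.6 CPM, ratio 1.57, 1.10 to 2.26) were called higher among 32 measured members, beside 4.5% of all genes. Hif1a (1.06, 0.957 to 1.18), Slc2a1 (1.04), Ldha (1.07), Bnip3 (1.10) and Vegfa (0.612, 0.362 to 1.02) were not called. Markers of monocytes in this cluster were at 32.1 and 97.0 CPM and of macrophages at 23288 and 28848 CPM, and their part in the result was not tested.

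The small Il1a/Hmox1 microglial cluster, 84 and 62 cells, had 5 called members of 24 measured, beside 7.52% of all genes. Hif1a was at 150.3 CPM (128 UMIs) and 234 CPM (176 UMIs), a ratio of 1.56 (1.23 to 1.97). The share of cells with a Hif1a UMI was 35.4% and 33.9% thinned, and 64.3% and 80.65% unthinned. Pgam1 was at 1.83 (1.36 to 2.49), Pfkl at 1.74 (1.04 to 2.97) and Mif at 1.69 (1.31 to 2.18), while Narf was lower at 0.480 (0.237 to 0.922). Of the metformin library's Hif1a UMIs in this cluster, 15.3% came from 1 cell, and without the richest cell of each library the ratio was 1.43, under the size needed for a call. Slc2a1 was at 0.884 (0.680 to 1.15) and Ldha at 1.38 (1.11 to 1.71). CD8 T markers in the cluster were at 29.4 and 89.0 CPM.

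CD8 T-like cells, 480 and 464 in number, had 2 called members of 34 measured, beside 3.92% of all genes. Bnip3 had 7.03 CPM (31 UMIs) and 15.9 CPM (81 UMIs), a ratio of 2.26 (1.48 to 3.54). Plin2 had 12.03 CPM (53 UMIs) and 21.6 CPM (110 UMIs), a ratio of 1.79 (1.28 to 2.54), but 23.6% of the metformin UMIs came from 1 cell, and the ratio was 1.01 with cells weighted equally. Hif1a (0.909, 0.814 to 1.01), Slc2a1 (0.876, 0.627 to 1.22) and Ldha (0.952, 0.894 to 1.01) were not called. Macrophage markers in this class were at 317 and 509 CPM.

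CD4 T-like cells, the class with the most Hif1a, had a Hif1a ratio of 0.902 (0.845 to 0.961) and a glycolytic sum ratio of 1.01 (0.989 to 1.03). Of 35 measured members, Slc16a3 alone was called (15.7 and 23.7 CPM, ratio 1.51, 1.04 to 2.18), beside 5.17% of all genes, and its ratio was 0.993 with cells weighted equally. Regulatory T-like cells had 1 called member of 34, beside 4.66% of all genes: Hilpda was at 73.0 CPM (158 UMIs) and 113 CPM (261 UMIs), a ratio of 1.55 (1.26 to 1.90), falling to 1.10 with cells weighted equally. Their glycolytic sum ratio was 0.995 (0.971 to 1.02).

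The Ifit1/Ifit3 T cluster, T cells rich in interferon-induced genes, had 5 called members of 19 measured, all lower, beside 6.45% of all genes. Hif1a was at 366.5 CPM (239 UMIs) and 187 CPM (93 UMIs), a ratio of 0.510 (0.397 to 0.651). The share of cells with a Hif1a UMI was nearly equal, at 48.8% and 49.1% thinned and 72.1% and 70.5% unthinned. Egln1 was at 0.449 (0.219 to 0.861), Pgam1 at 0.520 (0.306 to 0.856), Pdk1 at 0.551 (0.314 to 0.934) and Tpi1 at 0.598 (0.391 to 0.897). With 86 and 61 cells the cluster mixes T cell types, and Cd4 was at 138 and 94.5 CPM, Cd8a at 346.5 and 326 CPM and Foxp3 at 10.7 and 4.02 CPM. Summed regulatory T markers were at 911 and 438 CPM and NK markers at 1122 and 599 CPM. Their part in the lower Hif1a was not tested.

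Other T clusters showed 1 called member or none. In the Nr4a2/Pde4d T cluster Hilpda was at 0.643 (0.486 to 0.851), beside 4.71% of all genes. This call was kept in 4 of 8 alternatives, and the ratio turned to 1.26 (1.03 to 1.55) when the libraries were clustered separately. In the Tcf7/Trat1 T cluster P4ha1 had 16 and 26 UMIs and a ratio of 2.03 (1.05 to 4.06), beside 4.36% of all genes. In naive T-like cells Tpi1 had 43 and 58 UMIs and a ratio of 1.53 (1.01 to 2.33), beside 4.2% of all genes. In the Klra1/Klra6 T cluster none of 30 measured members was called, where 3.89% of all genes were.

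NK-like cells, 385 and 546 in number, had 1 called member of 33, beside 3.03% of all genes. Pdk1 was at 14.7 CPM (39 UMIs) and 22.2 CPM (82 UMIs), a ratio of 1.51 (1.02 to 2.27), which sits on the limit of the rule. Hif1a (1.12, 0.929 to 1.35), Slc2a1 (0.911, 0.676 to 1.23), Ldha (0.921, 0.838 to 1.01), Vegfa (0.944, 0.721 to 1.24) and Bnip3 (1.36, 0.745 to 2.55) were not called. The glycolytic sum had a ratio of 0.989 (0.958 to 1.02).

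γδ T-like cells were few, 59 and 46, and 21 members were measured. Their defining genes were present, with Trdc, the δ constant chain, at 1756 and 1774 CPM, and the 6 γδ markers summed to 5131 and 5203 CPM. Il17a and Cd163l1 led the class, so it need not hold all γδ T cells. Trdc was also in the Klra1/Klra6 T cluster, at 171 CPM (404 UMIs) and 256 CPM (661 UMIs), where Hif1a was at 58.4 and 55.7 CPM. Among all classes of at least 20 cells in each library, γδ T-like cells had the highest Ero1l in both libraries. They also had the highest Egln3 in the control library (27.7 CPM, from 11 UMIs) and the highest Hilpda in the metformin library. Hif1a was at 279.6 CPM (111 UMIs) and 242 CPM (74 UMIs), a ratio of 0.866 (0.636 to 1.17). Ldha was at 459 and 429 CPM, a ratio of 0.935 (0.741 to 1.18), and Hilpda at 0.983 (0.689 to 1.40).

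Plin2 was the member called in the γδ T-like cells, beside 6.1% of all genes. It had 50.4 CPM (20 UMIs) and 121 CPM (37 UMIs), a ratio of 2.40 (1.36 to 4.37). Gapdh was at 960 and 733 CPM, a ratio of 0.764 (0.645 to 0.903), under the size of a call. After thinning, 22.8% (12.7% to 35.8%) of control and 47.7% (32.5% to 63.3%) of metformin cells held an Ero1l UMI although its level had a ratio of 1.09 (0.718 to 1.64), and the intervals of the shares overlap. Slc2a1 had 5 and 5 UMIs, Vegfa 7 and 1, Bnip3 1 and 0 and Egln3 11 and 3, too few for a comparison at this depth. Ak4, P4ha2 and Ankrd37 had none, which allows up to 9.29 and 12.07 CPM of each (exact upper bounds).

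Among the remaining classes, B-like cells had 3 called members of 33, beside 4.53% of all genes: Ero1l at 1.87 (1.19 to 2.90), Adm at 0.446 (0.259 to 0.729) and Plin2 at 0.466 (0.221 to 0.893). Adm in these cells had 112 and 19 UMIs and Plin2 62 and 11 UMIs. The summed level of 6 B cell markers was 10398 and 6713 CPM. Conventional dendritic-like cells had 2 of 34, beside 7.67% of all genes, with Ndrg1 at 44.4 and 73.3 CPM (ratio 1.65, 1.25 to 2.21) and Vegfa at 39.2 and 22.2 CPM (0.566, 0.387 to 0.827), and their glycolytic sum had a ratio of 1.19 (1.15 to 1.23). Cycling lymphocyte-like cells had 2 of 34, beside 9.07% of all genes, with Slc2a3 at 1.80 (1.13 to 2.94) and Ankrd37 at 0.559 (0.345 to 0.895).

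Across classes, Plin2 was the gene with the most calls. Its ratio was above 1 in 11 of 13 classes measured, and it was called higher in 4 and lower in 1. Over the whole libraries it was at 61.0 and 95.3 CPM, a ratio of 1.56 (1.49 to 1.64), the largest of the 39 on that count. Hk2 lay above 1 in 11 of 13 classes and Slc16a3 in 8 of 9, while Hif1a lay below 1 in 12 of 17, Egln1 in 13 of 17, Ddit4 in 11 of 15 and Vegfa in 4 of 4. Fewer intervals left out 1. They lay above 1 in 3 classes and below 1 in 1 for Hk2, and above 1 in 1 for Slc16a3. For Hif1a they lay below 1 in 5 and above 1 in 1, and for Ddit4 below 1 in 3 and above 1 in 1. Egln1 had an interval below 1 in 1 class and Vegfa in 2. Over the whole libraries Vegfa had a ratio of 1.07 (0.996 to 1.15). Gapdh, with its many UMIs, had an interval above 1 in 7 classes and below 1 in 3. For most members the ratio lay above 1 in some classes and below 1 in others, and whether cell types differ was not tested. The classes share the 2 libraries and are not replicates.

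**Figure D5:**
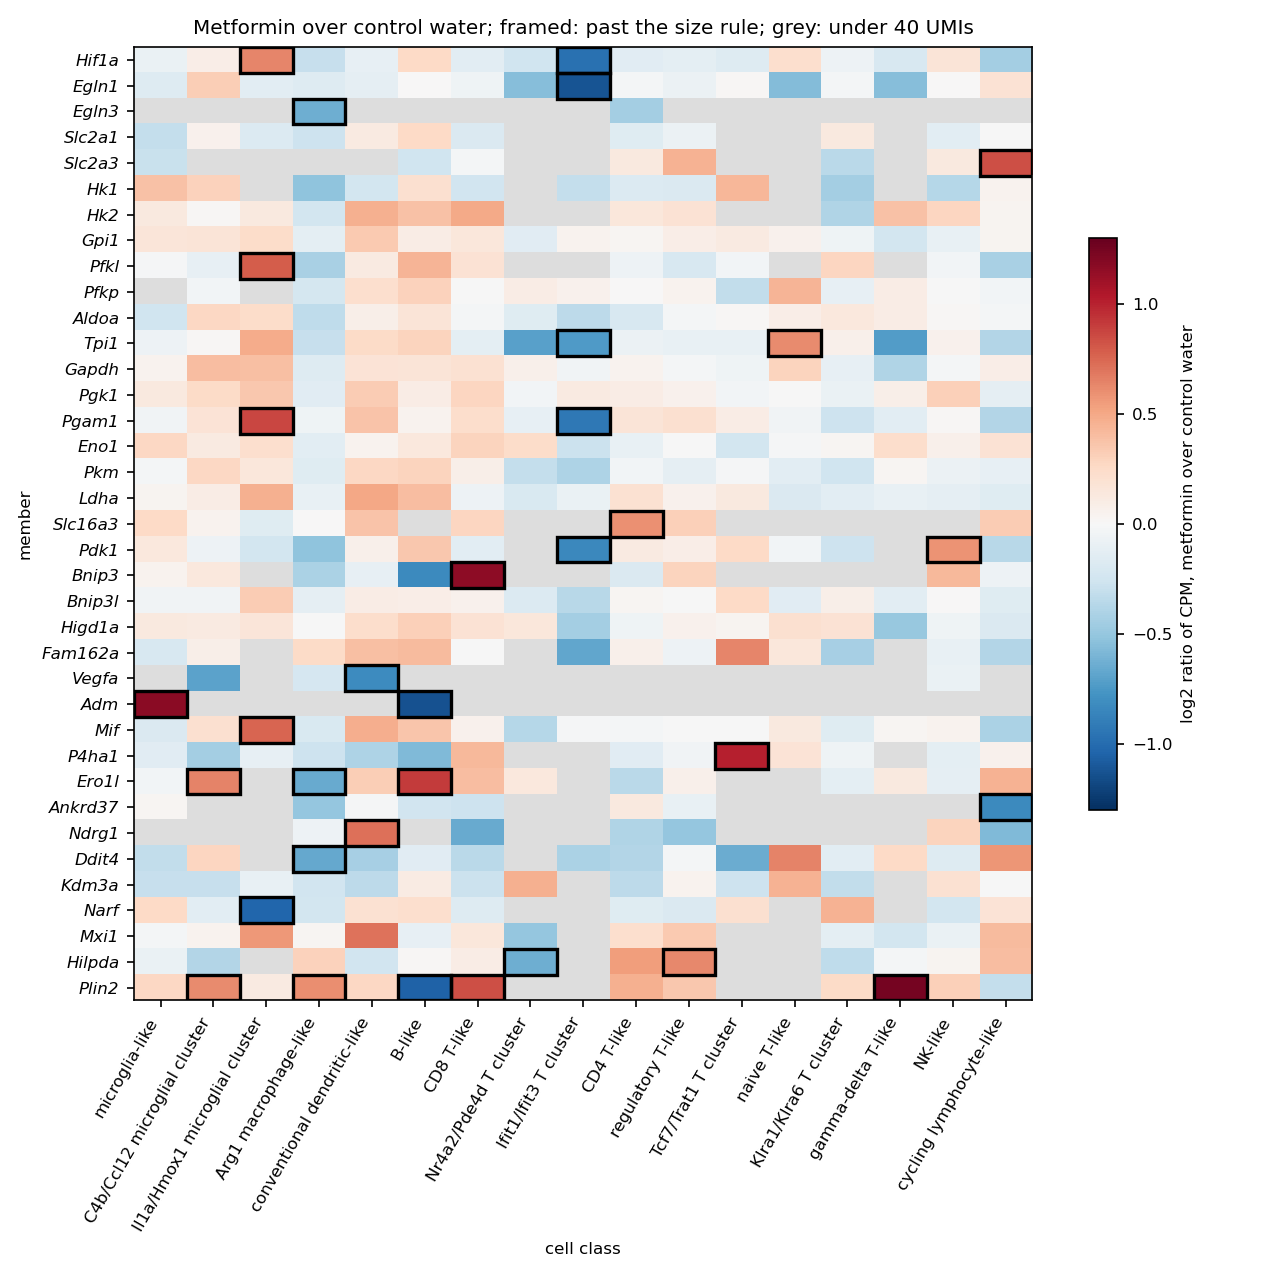
Log2 ratio of metformin to control for each gene (rows) in each compared class (columns). Grey cells had under 40 UMIs and framed cells were called. The Plin2 row is above 0 in 11 of 13 classes, and the Arg1 macrophage column is below 0 for 30 of 35 genes.

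Genes around the pathway that are not among the 39 were read in the macrophages from lists made with earlier results of these data known. Of 16 HIF pathway components, 13 were measured and none was called, with Vhl, the ubiquitin ligase subunit that recognizes HIF-1α, at 33.7 and 26.1 CPM (ratio 0.774, 0.608 to 0.985). Of 27 other glycolysis and lactate genes, 17 were measured and none was called. Pfkfb3, which makes the activator of phosphofructokinase, was at 67.4 and 49.6 CPM (0.736, 0.620 to 0.874), and Ldhb at 35.8 and 46.9 CPM (1.31, 1.07 to 1.61). Of 29 other hypoxia targets, 20 were measured, and Arg1 was called lower (943 and 393 CPM, ratio 0.417, 0.395 to 0.440) and Kdm6b, a histone demethylase, higher (139 and 229.7 CPM, ratio 1.65, 1.49 to 1.82). Hmox1, haem oxygenase, was at 1.25 (1.12 to 1.39).

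In the macrophages, of 19 pyruvate dehydrogenase and TCA cycle genes (the list also holds cytosolic Mdh1) 16 were measured, none was called and 12 lay above 0, with a median log2 ratio of 0.14. Mdh1 and Mdh2, the cytosolic and mitochondrial malate dehydrogenases, were at 1.29 (1.12 to 1.48) and 1.22 (1.08 to 1.37), Suclg1 at 1.26 (1.06 to 1.51), and Cs, citrate synthase, at 0.769 (0.636 to 0.930). All 7 pentose phosphate genes were measured and none was called, with Pgd at 0.795 (0.706 to 0.895). In the γδ T-like cells none of 7 measured HIF pathway components, 3 other glycolysis genes, 9 TCA cycle genes or 3 pentose phosphate genes was called. Of 4 measured other hypoxia targets 1 was called lower: Bhlhe40, a transcriptional repressor, was at 307 and 141 CPM, a ratio of 0.458 (0.316 to 0.653).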

How the data were processed

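The deposited matrices hold raw UMI counts per gene and cell barcode, made by the authors with Cell Ranger on build mm10, with Seurat also named, per the submitters' processing notes, and the file headers name matrix software 3.0.0. Whether counting used strand is not given in the sources used here. From these counts, barcodes with at least 300 detected genes and at most 10% mitochondrial UMIs were kept (92 control and 151 metformin barcodes fell under the first limit, 647 and 716 over the second). Scrublet marked 67 (1.23%) and 38 (0.825%) of the rest as doublets, and they were removed. Cells of both libraries were clustered together with scanpy 1.11.5 and leidenalg 0.10.2 in Python 3.11.15 (2000 variable genes, leaving out the 39 genes and those that are ribosomal, mitochondrial, sex-linked or encode haemoglobin, 30 principal components, 15 neighbours, resolution 1.0, and 1.5 within lymphoid cells). Names came from marker lists, and other authors' names for these cells could differ.

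The level of a gene is its summed UMIs in a class of 1 library, or in the whole library where so stated, over all UMIs there. Intervals (scipy 1.17.1) are exact Poisson for levels, exact conditional for ratios and Clopper-Pearson for shares, at 95%. Shares came from cells thinned to 3000 UMIs, with shallower cells left out: of Arg1 macrophage-like cells 358 and 341 entered, of B-like cells 632 and 246. The calling script was run on simulated Poisson counts, which hold no spread between cells or mice. That run says nothing about such spread in these data. Every gene of the 39 is named with a level, every called gene is named in its class, Hif1a, Slc2a1, Ldha, Vegfa, Bnip3 and Egln3 are given in macrophage, microglial, CD8 T, NK and γδ T classes where they had at least 40 UMIs, and of each related list at most 4 genes are named. The genes, lists and rules were chosen with earlier results of these data known. Alternatives changed the mitochondrial limit, doublet removal, scaling, weighting of cells, the richest cell, the clustering, the UMI minimum and the size of a call. Overlaps of counted genes were read from GENCODE vM21 (GRCm38, the same assembly as mm10).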

Additional observations from a re-analysis of the deposited data

Results flagged for a closer look

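For 8 genes, a call in one cell class stood against a call in the opposite direction in another. With 1 library per group none of these differences between classes was tested, and the classes share both libraries. Opposite calls were not counted over all genes. Whether 8 is more than among other genes was therefore not tested, and the count is no trait of these genes as a group. Plin2 was higher in the metformin library in the C4b/Ccl12 microglial cluster (ratio 1.54), Arg1 macrophage-like (1.52), CD8 T-like (1.79) and γδ T-like cells (2.40), and lower in B-like cells (0.466). Ero1l was higher in the C4b/Ccl12 cluster (1.57) and B-like cells (1.87) and lower in Arg1 macrophage-like cells (0.635), but the call in the C4b/Ccl12 cluster was kept in only 3 of 8 alternatives. Hif1a was higher in the Il1a/Hmox1 microglial cluster (1.56) and lower in the Ifit1/Ifit3 T cluster (0.510).

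Pgam1 was likewise higher in the Il1a/Hmox1 cluster (1.83) and lower in the Ifit1/Ifit3 T cluster (0.520). The Ifit1/Ifit3 T cluster was also the lower side for Tpi1 (0.598, against 1.53 in naive T-like cells) and Pdk1 (0.551, against 1.51 in NK-like cells). Adm was higher in microglia-like cells (2.27) and lower in B-like cells (0.446). Hilpda was higher in regulatory T-like cells (1.55) and lower in the Nr4a2/Pde4d T cluster (0.643). The first ratio was 1.10 with cells weighted equally, and the second call was kept in 4 of 8 alternatives and turned to 1.26 with the libraries clustered separately. Calls named here that were kept in 4 of 8 alternatives or fewer, or in 4 of 7 or 3 of 5 where fewer could be run, also include Hif1a in the Il1a/Hmox1 cluster, Tpi1 in naive T-like cells and Pdk1 in NK-like cells and the Ifit1/Ifit3 T cluster.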

How the results depend on the processing

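No paired analysis was possible because each condition has 1 library. Among Arg1 macrophage-like cells the median log2 ratio stayed between -0.20 and -0.12 for the glycolytic genes and between -0.26 and -0.18 for the targets over all alternatives run. Weighting the 5 macrophage sub-clusters alike and leaving out those led by T and B cell genes were alternatives chosen after seeing the data, and the first gave Vegfa a ratio of 0.750. Ddit4 and Ero1l stayed called there in 10 of 10 alternatives, Plin2 in 9 of 10 (1.41 with cells weighted equally) and Egln3 in 7 of 10. In γδ T-like cells Plin2 stayed called in 7 of 8, the exception being the 5% mitochondrial limit, at 2.10 (0.784 to 5.62). Bnip3 in CD8 T-like cells and Adm in microglia-like cells stayed called in 8 of 8. Calls kept in under 5 of 8 were Ero1l in the C4b/Ccl12 cluster (3), P4ha1 in the Tcf7/Trat1 cluster (2), Tpi1 in naive T-like cells (3), Pdk1 in NK-like cells (4), Slc16a3 in CD4 T-like cells (4) and Hilpda in the Nr4a2/Pde4d T cluster (4). Hif1a and Mif in the Il1a/Hmox1 cluster were kept in 4 of 7 and Pdk1 in the Ifit1/Ifit3 T cluster in 3 of 5. Directions turned for Hilpda in the Nr4a2/Pde4d T cluster when the libraries were clustered separately (1.26) and for Slc16a3 in CD4 T-like cells with cells weighted equally (0.993), and the cause was not tested.

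Counts of called genes moved as follows, and the cause was not tested except where fewer genes could pass by construction. A ratio of at least 2 left 0 of 4 in the macrophages, 1 of 2 in CD8 T-like and 0 of 1 in NK-like cells. A minimum of 100 UMIs left 0 of 1 in microglia-like and 0 of 1 in γδ T-like cells. In CD8 T-like cells 1 of 2 was left with cells weighted equally and 1 without the richest cell. In NK-like cells 0 of 1 was left with doublets kept, with cells weighted equally, without the richest cell and with the libraries clustered separately. In γδ T-like cells the count was 3 at the 5% mitochondrial limit, 2 with cells weighted equally and 3 with the libraries clustered separately. The Il1a/Hmox1 cluster could be formed in 7 of 8 alternatives and the Ifit1/Ifit3 T cluster in 5 of 8. Depth limits the small classes: 21 of the 39 genes reached 40 UMIs in γδ T-like cells and 19 in the Ifit1/Ifit3 T cluster.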

Other observations

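Some classes were too small to compare but held marked levels. The 6 control and 4 metformin innate lymphoid-like cells carried 143 and 113 Hilpda UMIs, 2577 and 2430 CPM, which were 65.0% and 55.1% of their hypoxia target UMIs. The 45 control neutrophil-like cells had 113 Slc2a3 and 196 Slc16a3 UMIs, and the 6 metformin cells 19 and 49. In Arg1 macrophage-like cells Angptl4, which encodes a secreted lipase inhibitor and is not among the 39 genes, had 4 and 35 UMIs, a ratio of 7.43 (2.66 to 28.8) under the minimum of 40 UMIs, and it was singled out after its values were seen. Of the unnamed clusters, the one led by Gh, Ttr and Igha had a glycolytic sum of 1155 CPM in 21 control cells and 3760 CPM in 13 metformin cells, and the shallow Cst7 cluster 5059 and 4321 CPM in 60 and 86 cells.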
